A study of Mus musculus with 70 samples.

Results

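The genes that store, move and sense iron were followed in 4 kinds of blood leukocyte from mice exposed to chronic social defeat stress (CSDS). They were 8 of 52636 genes in the table: Fth1, Ftl1, Ncoa4, Tfrc, Slc11a1, Slc40a1, Ireb2 and Aco1. These genes were chosen by their known function, with earlier results of these data known. Male C57BL/6J mice 7 to 8 weeks old met an aggressor on each of 10 days, and their social interaction was then scored. Stressed mice were called susceptible (SUS) or resilient (RES) by that score, and unstressed mice were controls (CON). RNA was sequenced in bulk from B cells, T cells and monocytes, the last split into Ly6C-high and Ly6C-low. The cells were sorted on surface CD11b, Ly6C, Ly6G, B220 and CD90.2 after lysis of red blood cells, and both the study's methods and its design text give blood as their source, whereas the sample labels name brain. The labels give no mutation or drug for any group, and SUS and RES mice went through the same stress.

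Of 70 libraries, 68 were used. In RES B cell replicate 52 the B cell gene Cd79a stood at 5.76 CPM (reads of a gene per 1000000 reads of its library) and the T cell gene Cd3e at 412 CPM. In RES T cell replicate 70 they were at 1417 and 0.143 CPM, so both libraries went against their labels and were left out. Each group then held 6 libraries, except for CON Ly6C-low monocytes with 4, RES B cells with 5 and RES T cells with 5. The libraries used held 19769835 to 67038231 reads assigned to genes, with a median of 37105583.5. Mitochondrial genes took 3.66 to 18.4% of these reads and 2 rRNA-like genes took 0.395 to 41.0%. Summed markers of each sorted type were highest in that type, with 17938 to 31338 CPM for 5 Ly6C-high genes, 6574 to 8978 CPM for 5 Ly6C-low genes, 3302.5 to 4815 CPM for 4 B cell genes and 1329 to 2091 CPM for 4 T cell genes. Markers of other cell types were read as well, and the source of their reads was not tested. In Ly6C-low monocytes 3 natural killer cell genes summed to 171 to 969 CPM, and in Ly6C-high monocytes 6 neutrophil genes summed to 114 to 846 CPM.

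Cells keep iron in ferritin, a shell built from the heavy chain Fth1, which oxidises iron, and the light chain Ftl1, which helps to lay it down as mineral. Ncoa4 carries ferritin to the lysosome, where the iron is released. The transferrin receptor Tfrc takes up iron from the blood, Slc11a1 (NRAMP1) pumps metal out of phagosomes, and ferroportin, Slc40a1, is the exporter of iron from the cell. The iron regulatory proteins Aco1 (IRP1, also a cytosolic aconitase) and Ireb2 (IRP2) bind a small hairpin, the iron-responsive element (IRE), when iron is scarce. Binding in a 5′ UTR blocks translation and binding in a 3′ UTR protects the mRNA from decay. Monocytes and macrophages are known for recycling iron from old red cells, and dividing lymphocytes for taking it up through Tfrc.

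The hairpins by which the sensors act on the other members were read from the mouse genome (GRCm38, the NCBI name for mm10, with the GENCODE M21 annotation). They are given as a description, and no level in what follows was tested against them. The pattern was an unpaired C, 5 stem bases, the loop CAGTG followed by A, C or T, and at least 4 of 5 pairs in the stem, with G-U pairs allowed. Only the transcript strand was searched. Capitals mark the 6-base loop, and each sequence runs 5′ to 3′ on the strand of its gene.
Fth1, 5′ UTR, chr19:9982732-9982760, plus strand: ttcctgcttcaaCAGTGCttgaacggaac
Ftl1, 5′ UTR, chr7:45459779-45459807, minus strand: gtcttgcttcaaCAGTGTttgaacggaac
Slc40a1, 5′ UTR, chr1:45925465-45925493, minus strand: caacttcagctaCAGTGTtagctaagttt
Tfrc, 3′ UTR, chr16:32631219-32631247, plus strand: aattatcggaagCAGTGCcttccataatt
Tfrc, 3′ UTR, chr16:32631598-32631626, plus strand: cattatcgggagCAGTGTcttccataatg
Tfrc, 3′ UTR, chr16:32631663-32631691, plus strand: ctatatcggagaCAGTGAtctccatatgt
Tfrc, 3′ UTR, chr16:32631710-32631738, plus strand: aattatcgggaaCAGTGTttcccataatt
All 7 sites had 5 of 5 stem pairs. They lay in 4 of the 8 members, with the ferritin chains and the exporter matched in the 5′ UTR and the receptor in the 3′ UTR. Among all protein-coding genes the pattern matched 0.695% of 20582 genes with a 5′ UTR and 3.17% of 20978 with a 3′ UTR. Of 42 other iron genes 2 held a match, Hif1a and Slc11a2, each with 4 of 5 pairs. A match is a run of letters that could fold, and binding was not measured here.

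The first comparison was between the sorted cells. Levels are CPM on a common scale set by the trimmed mean of M-values (TMM), and tests are edgeR quasi-likelihood tests averaged over CON, SUS and RES with Benjamini-Hochberg adjustment over all 24248 genes tested. A gene passes at an adjusted p under 0.05. Ly6C-high monocytes differed from Ly6C-low monocytes in 5 of 8 members, 3 higher and 2 lower, where 46% of all genes passed. They differed from B cells in 7 (5 higher, 2 lower; 57% of all genes) and from T cells in 7 (6 higher, 1 lower; 61.1%). Ly6C-low monocytes differed from B cells in 7 (5 higher, 2 lower; 56.6%) and from T cells in 7 (6 higher, 1 lower; 54.5%). B cells and T cells differed in 4 (3 higher in B cells and 1 lower, where 43.8% of all genes passed). The 1 lower was Slc40a1, at 0 in all 17 B cell libraries and in 11 of 17 T cell libraries. It was too low to test within B or T cells alone and was tested in this fit, which holds the monocytes where it was higher. It is also among the members counted as higher in each monocyte and lymphocyte pair. Since about as many genes of any kind pass between these cells as do not, the counts say little by themselves and the levels matter more. In sorted bulk samples, a smaller share of cells that express a gene and less RNA of it in each cell cannot be told apart.

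**Figure D1:**
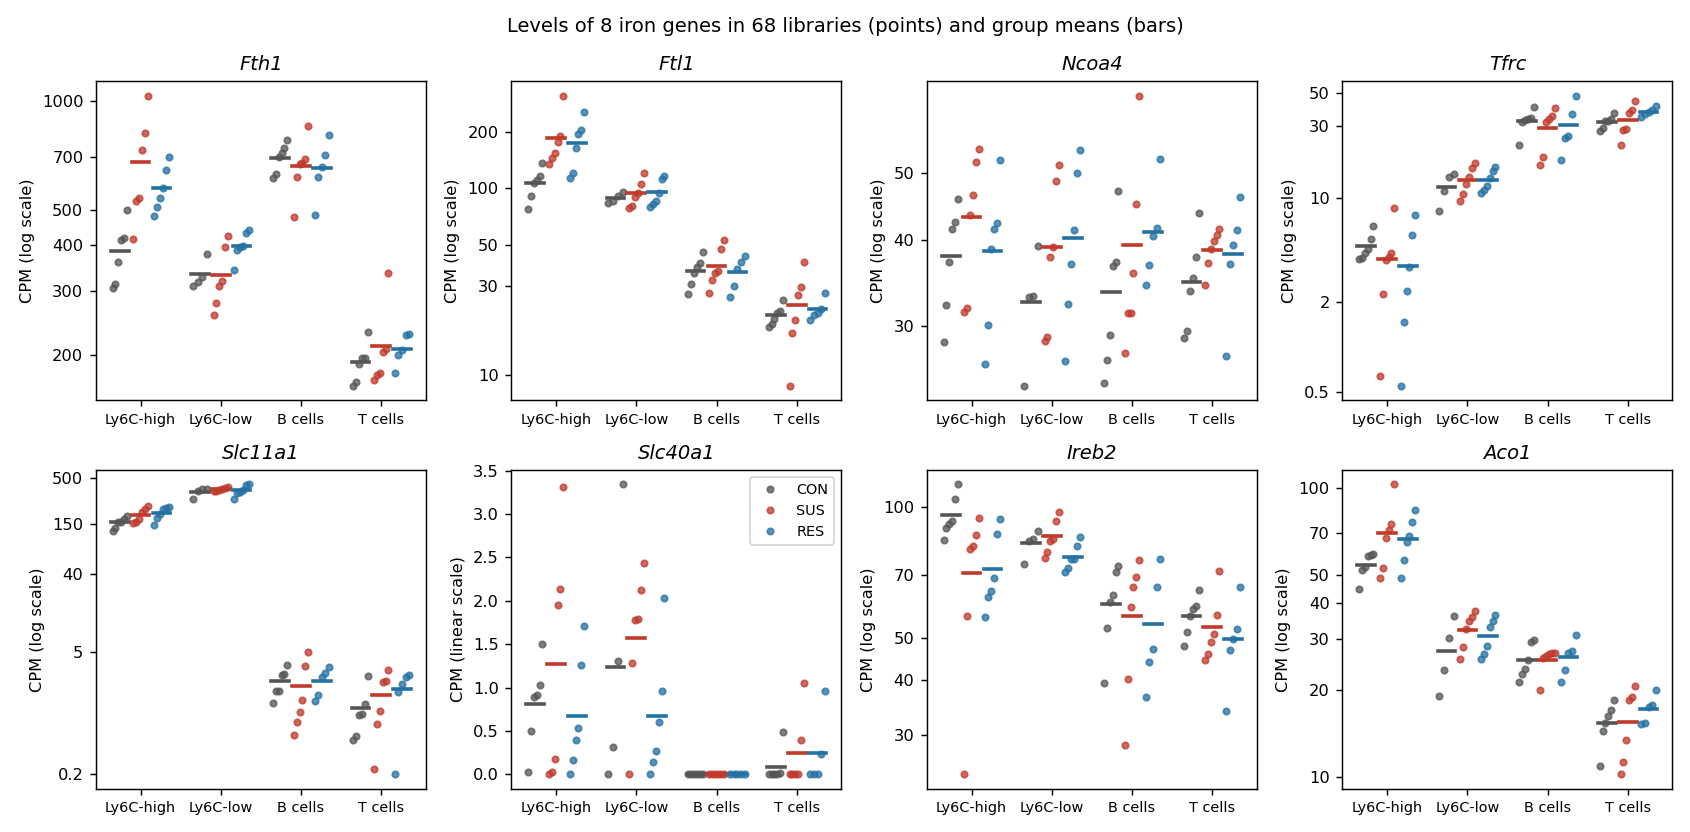
Level of each of the 8 iron genes in every library, in CPM on a log axis (linear for Slc40a1), by cell type and stress group, with a point for each library and a bar for each group's mean. Ftl1 and Slc11a1 sit high in both monocyte types, Tfrc in both lymphocyte types and Fth1 in B cells, while Ncoa4 stays between 24.6 and 64.7 CPM in all of them.

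Fth1 was abundant in all 4 cell types and did not follow the split between myeloid and lymphoid cells. The 17 B cell libraries held 478 to 853 CPM (median 673) and the 18 Ly6C-high libraries 305 to 1034 CPM (median 520). The 16 Ly6C-low libraries held 257.5 to 441 CPM (median 361) and the 17 T cell libraries 165 to 335 CPM (median 196). All B cell libraries lay above all Ly6C-low and all T cell libraries, while the other pairs of types overlapped. The order was thus B cells, Ly6C-high, Ly6C-low and T cells, and each step passed the test. B cells exceeded Ly6C-high monocytes by a log2 difference of 0.34 (written as -0.34 for Ly6C-high minus B, SE 0.088, adjusted p = 0.000711). With replicates 52 and 70 kept, the same step was -0.29 with an adjusted p of 0.0597. Ly6C-high monocytes exceeded Ly6C-low monocytes by 0.59 (SE 0.091, adjusted p = 1.08e-07). In CON libraries alone the latter step shrank to 0.20 with an adjusted p of 0.282, and the difference from B cells widened to -0.82. B cells also had the most red cell RNA, with a median of 3503 CPM summed over 6 red cell genes against 1366 CPM (Ly6C-high), 1007 CPM (Ly6C-low) and 1925 CPM (T cells), and its part in the Fth1 level was not tested.

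Ftl1 followed the split that Fth1 did not. Ly6C-high libraries held 77.9 to 314 CPM of it (median 141) and Ly6C-low libraries 78.3 to 121 CPM (median 90.7). B cells had 26.3 to 52.7 CPM (median 36.3), and T cells had 8.81 to 40.3 CPM (median 21.6). Every monocyte library lay above every lymphocyte library. Ly6C-high monocytes exceeded B cells by 2.05 and T cells by 2.76 on the log2 scale, and exceeded Ly6C-low monocytes by 0.71 (adjusted p = 1.41e-06). In CON libraries alone that last difference was 0.25 with an adjusted p of 0.265, as for Fth1.

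The balance of the ferritin chains therefore differed by cell type. The ratio of Fth1 to Ftl1, each per kilobase of exon, had a median of 1.23 in Ly6C-high and 1.42 in Ly6C-low monocytes, with all libraries of both types between 0.990 and 2.20. In B cells the median was 7.33 (4.62 to 10.2), and T cells lay between at 3.79 (2.51 to 7.50). Every lymphocyte library had a higher ratio than every monocyte library. Reads of Ftl1 are uncertain, because the genome holds near-identical copies: Ftl1-ps1 aligned at 99.56% identity over 910 bases and averaged 131 CPM in Ly6C-high monocytes against 156 CPM for Ftl1. With the copies' reads added, the median ratios were 0.598, 0.747, 3.36 and 1.82 in the same order of cell types. The ratio's absolute value thus depends on how copies are counted and on the exon lengths taken, 3469 bases for Fth1 and 1340 for Ftl1, while the order of the medians did not change.

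**Figure D2:**
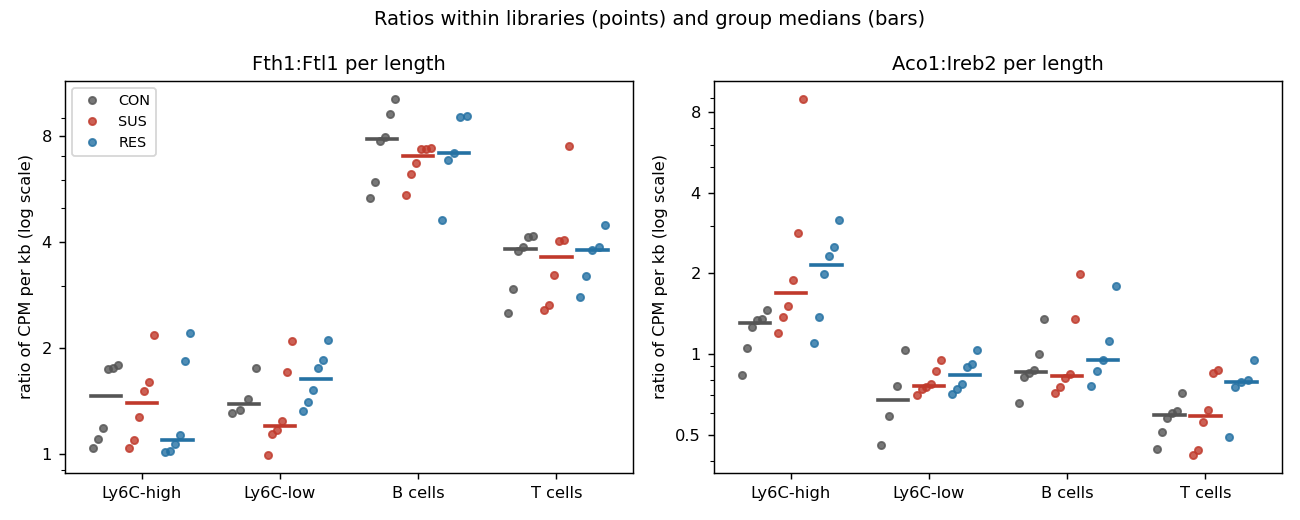
Ratio of Fth1 to Ftl1 (left) and of Aco1 to Ireb2 (right) in each library, from CPM per kilobase of exon on a log axis, by cell type and stress group, with points for libraries and bars for group medians. The ferritin ratio has a median of 7.33 over all B cell libraries and 1.23 over all Ly6C-high ones, and the highest sensor ratio, 8.96, is a single SUS library.

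Ncoa4 was the even member. Its mean was 39.9 CPM in Ly6C-high monocytes, 37.8 CPM in both Ly6C-low monocytes and B cells, and 37.1 CPM in T cells, with all libraries between 24.6 and 64.7 CPM. No pair of cell types passed for it, with log2 differences of -0.03 to 0.10. The sign of the small differences between Ly6C-low monocytes and B cells and between B and T cells turned with the alternatives tried, so no order is given.

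Tfrc ran the other way from Ftl1. It was lowest in Ly6C-high monocytes at 0.550 to 8.53 CPM (median 3.97), then 8.19 to 17.1 CPM (median 12.9) in Ly6C-low monocytes. The lymphocytes were higher, B cells at 16.6 to 48.3 CPM (median 33.2) and T cells at 22.6 to 44.6 CPM (median 34.7). No Ly6C-high library reached any lymphocyte library. The log2 difference of Ly6C-high from Ly6C-low monocytes was -1.66, from B cells -2.95 and from T cells -3.10. B and T cells did not differ beyond their spread (-0.15, adjusted p = 0.591).

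Slc11a1 marked the monocytes most sharply. It stood at 125 to 238 CPM (median 174) in Ly6C-high and 288 to 427 CPM (median 366) in Ly6C-low monocytes, and these ranges did not meet. B cells had 0.556 to 4.99 CPM and T cells 0.197 to 3.14 CPM of it. Ly6C-low exceeded Ly6C-high monocytes by 1.01 on the log2 scale (-1.01 as Ly6C-high minus Ly6C-low, adjusted p = 5.68e-05), the direction opposite to that of both ferritin chains. B and T cells were indistinguishable in the fit over all groups (0.52, adjusted p = 0.0685), though in CON libraries alone B cells were higher by 0.92 (adjusted p = 0.0311).

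The exporter Slc40a1 was scarce throughout. Ly6C-high monocytes held 675 of its reads over 18 libraries, of which 16 had any, and Ly6C-low monocytes 715 over 16 libraries, of which 13 had any. T cells held 132 reads in 6 of 17 libraries. B cells held 0 reads in 17 libraries, which allows a level of up to 0.00539 CPM (3 reads over the whole group, counting error only). Pooled over libraries the level was 0.982 CPM in Ly6C-high cells, 1.17 CPM in Ly6C-low cells and 0.192 CPM in T cells, on the same TMM scale. These are 182-fold, 216-fold and 35.7-fold the limit in B cells, without allowance for the spread between libraries. Single libraries held up to 135 of these reads in either monocyte type and 48 in T cells. By edgeR Ly6C-high and Ly6C-low monocytes exceeded T cells by 2.36 (adjusted p = 0.0212) and 2.66 (adjusted p = 0.0133) on the log2 scale. In CON libraries alone neither passed (3.22, adjusted p = 0.0974, and 3.83, adjusted p = 0.0726). The monocyte types did not differ in Slc40a1 beyond their spread (adjusted p = 0.867).

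The sensors split as well. Aco1 was 44.8 to 103 CPM (median 58.9) in Ly6C-high monocytes, and every such library lay above all libraries of the other types. Next came Ly6C-low monocytes at 19.1 to 37.6 CPM, B cells at 20.0 to 31.1 CPM and T cells at 10.2 to 20.7 CPM. Ly6C-low monocytes and B cells overlapped and differed by only 0.23 on the log2 scale (adjusted p = 0.0318, and 0.511 in CON libraries alone). Ireb2 was closer to even, at 24.3 to 113 CPM (median 85.2) in Ly6C-high and 70.9 to 97.7 CPM in Ly6C-low monocytes. B cells held 28.4 to 76.0 CPM, and T cells 34.1 to 71.6 CPM. It was higher in Ly6C-high monocytes than in B cells by 0.47 (adjusted p = 0.000174) and than in T cells by 0.57. Ireb2 did not differ between the monocyte types (-0.05, adjusted p = 0.773) or between B and T cells (0.10, adjusted p = 0.551).

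Genes are compared here per kilobase of exon, which is only as good as the exon lengths taken. On this scale Aco1 and Ireb2 averaged 14.2 and 8.39 CPM in Ly6C-high monocytes. Ly6C-low monocytes averaged 6.79 and 8.62, B cells 5.69 and 6.01, and T cells 3.55 and 5.62. The median ratio of Aco1 to Ireb2 was 1.42 in Ly6C-high monocytes and 0.766, 0.865 and 0.614 in the other types in the same order. On the same scale Fth1 had the highest mean of the members in each cell type. It averaged 157.5, 103, 194 and 58.6 CPM per kilobase in the 4 cell types, against 0.653, 2.07, 5.00 and 5.53 for Tfrc. With the reads of the ferritin copies added to Ftl1, the median ratios given above were 0.598 and 0.747 in the monocyte types. Which chain stands higher there depends on the exon lengths taken, 3469 bases for Fth1 and 1340 for Ftl1, so no order is given.

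The second comparison was between stress groups within a cell type. In Ly6C-high monocytes both ferritin chains were higher in SUS than in CON mice. Between SUS and CON, 2 of 8 members passed, both higher in SUS, where 12.6% of all 16955 genes tested passed and 8.78% were higher. DESeq2 also called 2. The median log2 difference of the 8 members was 0.30, against -0.05 for all genes tested.

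Fth1 in CON Ly6C-high monocytes was 305, 313, 360, 414, 420 and 499 CPM. In SUS mice it was 416.5, 529, 542, 734, 815 and 1034 CPM, and in RES mice 482, 512, 539, 576, 645 and 703 CPM. All SUS libraries but the lowest lay above the highest CON library, as did all RES libraries but the lowest, so both stressed groups overlapped CON by a single library. CON averaged 385 ± 74.0 CPM, SUS 678 ± 227 and RES 576 ± 83.9 (SD, n = 6 each). SUS exceeded CON 1.73-fold (log2 0.79, SE 0.18, adjusted p = 0.00676 by edgeR). RES exceeded CON by 0.57 on the log2 scale (SE 0.18), which did not pass (adjusted p = 0.0672).

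For Ftl1 the CON libraries held 77.9, 91.4, 107, 111, 117 and 137 CPM. The SUS libraries held 136, 145, 155, 178, 191 and 314 CPM, and the RES libraries 113, 121, 165, 194, 206 and 255 CPM. Here the SUS group again reached into the CON range with its lowest library alone, and RES with its 2 lowest, both of which lay within it. SUS exceeded CON 1.71-fold (log2 0.78, SE 0.21, adjusted p = 0.0171 by edgeR), and RES exceeded CON by 0.70 (SE 0.21, adjusted p = 0.0526). Both chains thus differed between SUS and CON by nearly the same factor. The ratio of Fth1 to Ftl1 had medians of 1.46 (CON), 1.39 (SUS) and 1.10 (RES), and means of 1.43, 1.45 and 1.38. Within every group it split by library number. Replicates 1 to 8 lay between 1.51 and 2.20, and replicates 9 to 18 between 1.01 and 1.27. The source of this split was not tested, so no order of the groups is given. Of 5 copies tested, 3 passed: Ftl1-ps1 was higher in SUS by 0.94 (adjusted p = 0.00796), Ftl2-ps by 0.73 (adjusted p = 0.0358) and Gm15590 by 1.01 (adjusted p = 0.0130). Gm12164 (0.58, adjusted p = 0.697) and Gm10252 (-0.85, adjusted p = 0.763) did not pass. Reads shared among them cannot be assigned, and with the copies added to Ftl1 the difference was 0.84 (adjusted p = 0.00940).

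**Figure D3:**
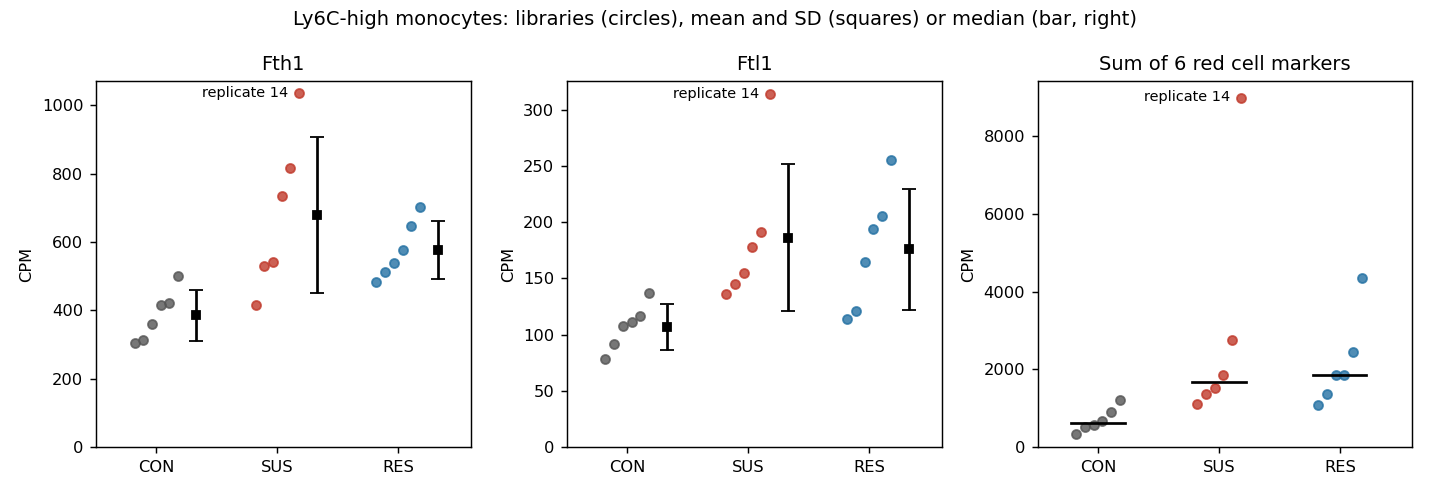
Fth1, Ftl1 and the summed level of 6 red cell genes in each Ly6C-high monocyte library (CPM, linear axes), with CON, SUS and RES apart. Circles are libraries, squares with bars are means ± SD (ferritin genes), and the lines in the right panel are medians. SUS replicate 14 is the highest point in all 3 panels, at 1034, 314 and 8988 CPM.

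Red cell RNA moved with the same groups. The 6 red cell genes, none of them at 0, summed to 343 to 1215 CPM (median 608) in CON Ly6C-high monocytes, 1097 to 8988 CPM (median 1682) in SUS and 1077 to 4348 CPM (median 1851) in RES. Between SUS and CON all 6 passed (12.6% of all genes), from Hbb-bs at 1.95 (adjusted p = 0.0168) to Slc4a1 at 4.03 (adjusted p = 0.00313) on the log2 scale. Between RES and CON 1 did, Slc4a1 (4.97% of all genes), and all 6 had an unadjusted p under 0.05 (21.2%). With the mean log2 level of these genes as a covariate, the SUS and CON difference was 0.32 for Fth1 (adjusted p = 0.847) and 0.21 for Ftl1 (adjusted p = 0.962), and neither passed. The share of all genes that passed with this covariate was not counted. Over the alternatives tried other than leaving out libraries, the adjusted p ran from 0.00192 to 0.847 for Fth1 and from 0.00940 to 0.962 for Ftl1. Stress group and red cell RNA cannot be told apart in these libraries. In the other cell types the red cell sum in SUS and CON libraries was 859 to 2691 CPM (median 1064.5) and 295 to 1259 CPM (median 591) in Ly6C-low monocytes. It was 3044 to 12799 CPM (median 5566) and 1335 to 7885 CPM (median 2781) in B cells, and 1645 to 4496 CPM (median 2384) and 888 to 2834 CPM (median 1479) in T cells. By edgeR 0 of the 6 genes passed between SUS and CON there, where only 0.241% (Ly6C-low), 0.00568% (B cells) and 0.0424% (T cells) of all genes did. At an unadjusted p under 0.05 there were 1, 2 and 4 of the 6, where 9.51%, 3.42% and 4.8% of all genes had one.

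Genes used as markers of other cells were read in the same comparison. Of 5 platelet genes Ppbp alone passed (2.31, adjusted p = 0.0326), with sums of 5.65 to 10.0 CPM in CON and 5.66 to 50.5 CPM in SUS. Of 6 neutrophil genes Mmp8 alone passed (1.49, adjusted p = 0.000209), with sums of 114 to 284 CPM in CON and 328 to 846 CPM in SUS, and Ly6g, the gene of the gated neutrophil protein, was too low to test. The paper reports Mmp8 among the top genes that differed between SUS and CON in these same sorted monocytes. It names both neutrophils and monocytes as main sources of MMP8, and the source of the Mmp8 reads was not tested here. Of 4 tissue macrophage genes Cd163 alone passed, and it fell, with sums of 203 to 263.5 CPM in CON and 227 to 437 CPM in SUS. Among the 5 Ly6C-high genes, Ly6c2 (0.82, adjusted p = 0.0243) and Lyz2 (0.45, adjusted p = 0.0268) were higher too, and the others are not given here. The part of other cells in the ferritin result was not tested.

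SUS replicate 14 stood apart, with the highest Fth1, Ftl1, Aco1 (103 CPM) and red cell RNA and the lowest Ireb2 (24.3 CPM) of its group. Without it the SUS and CON difference was 0.59 for Fth1, which still passed (adjusted p = 0.0156), and 0.52 for Ftl1, which did not (adjusted p = 0.0563). Ftl1 was also lost without CON replicate 1 (0.69, adjusted p = 0.0509). Over all libraries left out in turn, the adjusted p ran from 0.00152 to 0.0198 for Fth1 and from 0.0106 to 0.0563 for Ftl1.

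The other 6 members did not pass between SUS and CON in Ly6C-high monocytes. Ireb2 was 84.0 to 113 CPM (median 92.2) in CON and 24.3 to 94.6 CPM (median 80.8) in SUS, a log2 difference of -0.48 (SE 0.22, adjusted p = 0.154). Aco1 was 44.8 to 59.1 CPM (median 55.9) in CON and 48.9 to 103 CPM (median 69.6) in SUS, a difference of 0.33 (SE 0.17, adjusted p = 0.208). The sensors thus leaned in opposite directions without either passing, and the ratio of Aco1 to Ireb2 had medians of 1.30 (CON), 1.69 (SUS) and 2.16 (RES). Slc11a1 was 125 to 184 CPM in CON and 151 to 238 CPM in SUS (0.26, adjusted p = 0.245). Ncoa4 (0.16, adjusted p = 0.630) and Tfrc (-0.29, SE 0.54, adjusted p = 0.781) differed by less than their spread. Slc40a1 had a median of 1.06 CPM in SUS and 0.907 CPM in CON, which is too low to compare closely (0.60, SE 1.19).

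Between RES and CON, a comparison that uses the same CON libraries, 0 of 8 members passed in edgeR where 4.97% of all genes did. Unadjusted, 3 had a p under 0.05 (Fth1, Ftl1 and Slc11a1), where 21.2% of all genes had one, and DESeq2 called 1, Ftl1. With RES and CON alone in the fit 3 passed, namely Fth1 (0.54, adjusted p = 0.0107), Ftl1 (0.68, adjusted p = 0.0198) and Ireb2 (-0.45, adjusted p = 0.0445). Without SUS replicate 14, which enters this comparison through the shared fit, Fth1 (adjusted p = 0.0164) and Ftl1 (adjusted p = 0.00916) passed. The share of all genes that passed in these altered fits was not counted. Over the alternatives other than left-out libraries the adjusted p ran from 0.0107 to 0.997 for Fth1 and from 0.0198 to 0.997 for Ftl1, the upper ends again with the red cell covariate. Slc11a1 stood at 144 to 233 CPM in RES (0.35, adjusted p = 0.149), and Tfrc (-0.44) and Ncoa4 (0.02) did not pass. SUS and RES themselves differed by 0.22 for Fth1 (SE 0.18) and 0.07 for Ftl1 (SE 0.21), with an adjusted p of 0.999 for both. In that comparison 0 of 8 members passed in edgeR, where 0.0059% of all genes did, and 0 in DESeq2. At an unadjusted p under 0.05 there were 0, where 3.66% of all genes had one.

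**Figure D4:**
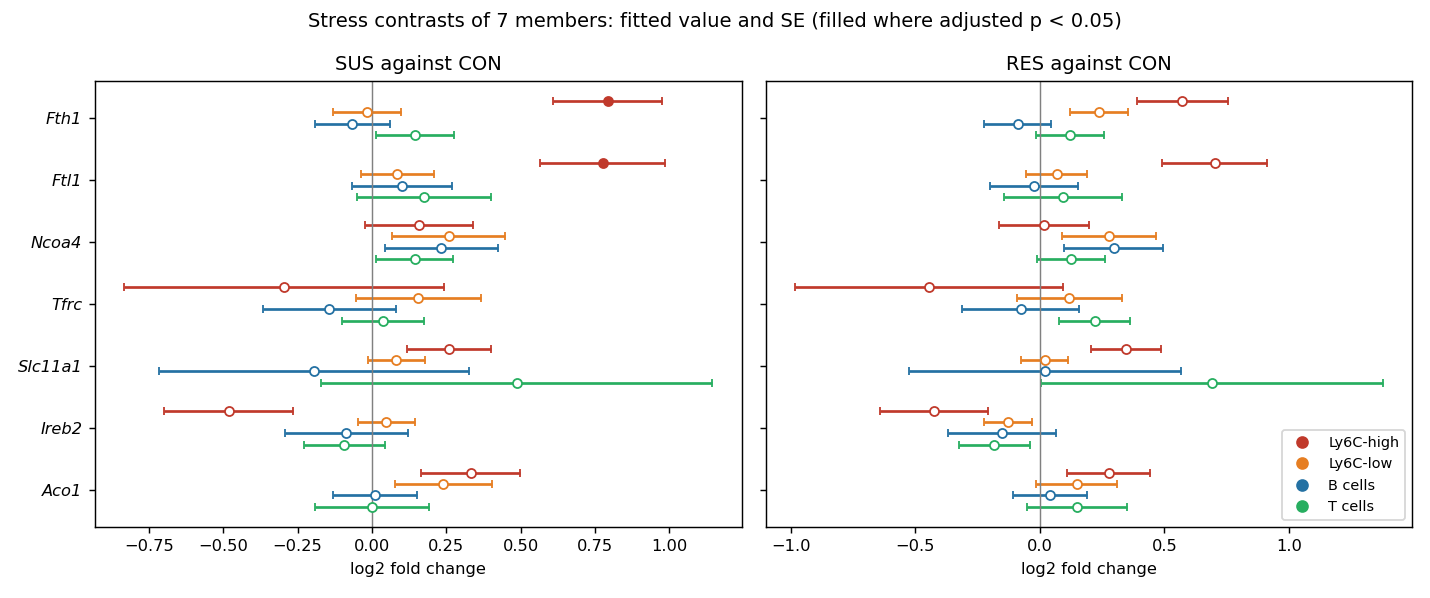
Log2 difference of 7 members, Slc40a1 left out, between SUS and CON (left) and between RES and CON (right) in the 4 cell types, as points with bars of ± 1 SE, filled where the adjusted p was under 0.05. Fth1 (0.79) and Ftl1 (0.78) in SUS Ly6C-high monocytes are the filled points.

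In the other 3 cell types none of the members passed in any comparison by edgeR or DESeq2. In Ly6C-low monocytes 0 of 8 passed between SUS and CON (0.241% of all genes), between RES and CON (0.0256%) and between SUS and RES (0%). At an unadjusted p under 0.05 there were 0, 1 and 1, where 9.51%, 9.67% and 3.79% of all genes had one. In B cells 7 members could be tested and 0 passed, with 0.00568% of all genes between SUS and CON and 0% in the other comparisons. There 0 members had an unadjusted p under 0.05, where 3.42%, 3.18% and 1.36% of all genes did in the same order. In T cells 0 of 7 passed, with 0.0424% of all genes between SUS and CON and 0% otherwise. Again 0 had an unadjusted p under 0.05 (4.8%, 4.11% and 2.39% of all genes). Fth1 in Ly6C-low monocytes was 309 to 379 CPM (median 322.5, n = 4) in CON, 257.5 to 424 CPM (median 315) in SUS and 343 to 441 CPM (median 398) in RES. All but the lowest RES library were above the highest CON library, and the difference of 0.24 for RES had an unadjusted p of 0.0498 (edgeR, adjusted p = 0.517). The SUS difference there was -0.02 (SE 0.11).

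B cells, which had the most Fth1, held 614 to 778 CPM (median 711) in CON, 478 to 853 CPM (median 672) in SUS and 485 to 805 CPM (median 659) in RES. T cells held 165 to 231 CPM (median 192), 171 to 335 CPM (median 191) and 179 to 229 CPM (median 206). These groups overlapped almost entirely, and the SUS and CON difference of Fth1 was -0.07 (SE 0.13) in B cells and 0.14 (SE 0.13) in T cells. For Ftl1 it was 0.10 (SE 0.17) and 0.17 (SE 0.23), and 0.09 (SE 0.12) in Ly6C-low monocytes.

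A call in a single cell type does not show that the cell types differ, so the difference of differences was tested in a fit over all 12 groups. For Fth1 the SUS and CON difference was larger in Ly6C-high monocytes than in B cells by 0.89 (SE 0.21, adjusted p = 0.00766), the only member of 8 to pass, where 6.18% of all genes did. The estimate ranged from 0.73 to 1.00 with each library left out in turn and passed every time (adjusted p = 0.00115 to 0.0345). With B cell replicate 52 and T cell replicate 70 kept under their labels it was 0.88 and did not pass (adjusted p = 0.111). Against Ly6C-low monocytes the difference was 0.83 (adjusted p = 0.0682) and against T cells 0.66 (adjusted p = 0.0601). In either, 0 of 8 members passed, where 0.363% and 3.22% of all genes did. At an unadjusted p under 0.05 there were 2 members each, where 14.2% and 18.7% of all genes had one. For RES, 0 of 8 members passed against Ly6C-low monocytes (0.099% of all genes), B cells (1.65%) or T cells (0.713%). At an unadjusted p under 0.05 there were 1, 2 and 2, where 11.7%, 18.2% and 17.7% of all genes had one. Neither DESeq2 nor the red cell covariate was run for these differences of differences, so the part of red cell RNA in them was not tested. For Ftl1 the SUS values were 0.71 against B cells (SE 0.28, not past the threshold), 0.71 against Ly6C-low monocytes (adjusted p = 0.243) and 0.62 against T cells (adjusted p = 0.209).

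Other genes of iron handling, 42 in a list arranged by role, were read in the same fits. In Ly6C-high monocytes 34 could be tested between SUS and CON, and 8 were higher, 1 was lower and 25 did not pass, where 12.6% of all genes passed. At an unadjusted p under 0.05 there were 21, where 26.5% of all genes had one, and DESeq2 called 13. Their median difference was 0.46, against -0.05 for all genes tested. By role, heme and hemoglobin handling had 4 of 11 higher and 1 lower. They included Hp (haptoglobin, which binds free hemoglobin; 1.77, SE 0.26, adjusted p = 0.000471), Hmox1 (the heme oxygenase that frees iron from heme; 0.85, SE 0.21, adjusted p = 0.00988) and Cd163 (the receptor for haptoglobin-bound hemoglobin; -1.46, SE 0.40, adjusted p = 0.0174). Hmox2 (0.46) and the heme transporter Slc48a1 (0.60) were the others, and these, like Abcb8 below, lie outside the naming rule and were named after their values were seen.

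Of the remaining roles, mitochondrial iron had 2 of 8 higher, which were Fech (it inserts iron into heme; 0.91, SE 0.24, adjusted p = 0.0149) and Abcb8 (0.75). Storage and chaperones had 1 of 2 higher, Pcbp2, which delivers iron to ferritin (0.53, SE 0.15, adjusted p = 0.0188). Export and its control had 1 of 3 higher, Hfe (0.77, SE 0.23, adjusted p = 0.0310). Uptake and reduction had 0 of 6 and sensing 0 of 4. The largest differences that did not pass were Lcn2 at 2.20 (adjusted p = 0.0620), Spic at -1.43 (adjusted p = 0.284), Cp at -1.15 (adjusted p = 0.0629) and Slc39a14 at 1.11 (adjusted p = 0.237).

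**Figure D5:**
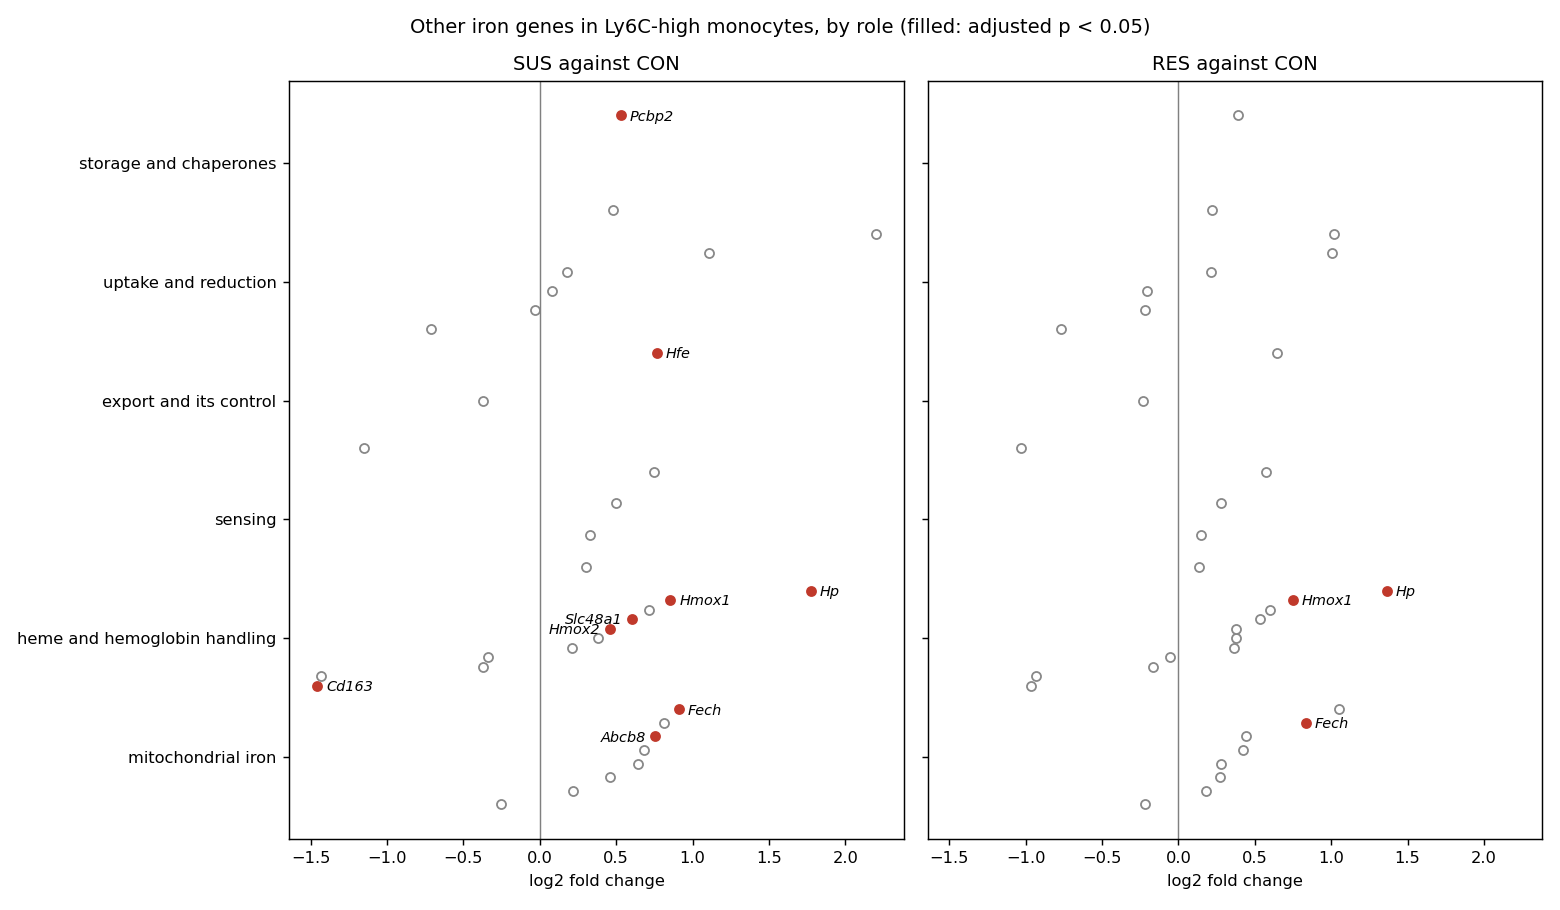
In Ly6C-high monocytes, log2 difference of the 34 other iron genes tested for SUS against CON (left) and RES against CON (right), grouped by role, with a point for each gene, filled where the adjusted p was under 0.05. On the left 8 filled points run from Hmox2 (0.46) to Hp (1.77) and Cd163 (-1.46) is filled below 0, and on the right Hp, Hmox1 and Fech are filled.

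Between RES and CON, with the same control libraries, 3 of the 34 passed, where 4.97% of all genes did, and all were higher: Hp (1.36, adjusted p = 0.0138), Hmox1 (0.75, adjusted p = 0.0406) and Fech (0.83, adjusted p = 0.0449). Unadjusted, 12 had a p under 0.05, where 21.2% of all genes had one, and DESeq2 called 3. The median difference of the 34 was 0.28, against -0.03 for all genes tested. Among those that did not pass, Cp stood at -1.03 (adjusted p = 0.135), Lcn2 at 1.02 (adjusted p = 0.453) and Slc39a14 at 1.00 (adjusted p = 0.340). These counts moved with single libraries. The SUS count of 9 fell to 4 without SUS replicate 14 and to 5 without CON replicate 1 or CON replicate 4, and rose to 14 without SUS replicate 5. The RES count of 3 fell to 1 without CON replicates 1, 4, 7, 10 or 16 or RES replicates 9, 15 or 18, each alone, and also with DESeq2 size factors. With the red cell covariate it was 0 in both comparisons. The share of all genes that passed in these altered fits was not counted.

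In the other cell types 0 of the other iron genes passed between stress groups in edgeR. Ly6C-low monocytes had 5 of 37 at an unadjusted p under 0.05 between SUS and CON (9.51% of all genes) and 6 between RES and CON (9.67%), with 2 and 1 called by DESeq2. B cells had 5 of 33 in both comparisons (3.42% and 3.18% of all genes), and T cells had 4 and 2 of 32 (4.8% and 4.11%), with 0 called by DESeq2. Between SUS and RES the unadjusted counts were 0 (Ly6C-high, 3.66% of all genes), 3 (Ly6C-low, 3.79%), 0 (B cells, 1.36%) and 1 (T cells, 2.39%), also with 0 called by DESeq2.

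The difference of differences was read for 39 of these genes. For SUS against CON, 4 passed between Ly6C-high monocytes and B cells, 3 with a larger value in Ly6C-high monocytes and 1 with a smaller one, where 6.18% of all genes passed. They were Pcbp2 (0.57, adjusted p = 0.0330), Fbxl5, a ubiquitin ligase subunit that marks Ireb2 for decay (0.88, adjusted p = 0.0183), Steap4 and, with the smaller value, Cd163. Steap4 was too low to test within Ly6C-high monocytes and Cd163 within B cells, so no fold is given for either. Against T cells 2 passed, both larger in Ly6C-high monocytes, where 3.22% of all genes passed. These were Pcbp2 (0.64, adjusted p = 0.0271) and Hmox2 (0.67, adjusted p = 0.0474). Against Ly6C-low monocytes 0 passed in edgeR (0.363% of all genes), with 3 at an unadjusted p under 0.05 (14.2% of all genes). For RES against CON 0 passed in all 3, where 0.099% (Ly6C-low), 1.65% (B cells) and 0.713% (T cells) of all genes did. At an unadjusted p under 0.05 there were 2, 3 and 6, where 11.7%, 18.2% and 17.7% of all genes had one. Fbxl5, Steap4 and Hmox2 were named here after their values were seen.

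Across the sorted cells many of the other iron genes differed, as did many genes of any kind. Of 39 tested, 25 were higher and 8 lower in Ly6C-high monocytes than in B cells (57% of all genes passed), and 24 and 6 against T cells (61.1%). Ly6C-low monocytes had 19 higher and 9 lower than B cells (56.6%) and 23 and 7 against T cells (54.5%). Bach1, the heme-sensing repressor of Hmox1 and of ferritin genes, was higher in Ly6C-high monocytes by 3.63 against B cells and 3.36 against T cells, and in Ly6C-low monocytes by 3.11 and 2.84. Nfe2l2, an activator of the same genes, was higher in Ly6C-high monocytes by 1.82 and 1.44 and in Ly6C-low monocytes by 2.45 and 2.07. Between the monocyte types 17 were higher and 8 lower in Ly6C-high cells (46% of all genes passed), among them Pcbp2 (1.05) and Hmox2 (1.15). Between the lymphocytes 12 were higher and 14 lower in B cells (43.8%), among them Blvrb, a biliverdin reductase, at 3.86.

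Finally, each member was set beside the protein-coding genes whose levels followed it most closely over the 68 libraries, by Pearson's r of log2 CPM with 0.5 added. The libraries span 4 cell types, so these values mostly follow the order of the cell types and are given as a description. Fth1 went with Mgrn1 (0.913), H3f3a (0.913) and Serp1 (0.908). Ftl1 went with its copy Ftl1-ps1 (0.984), with which it may share reads, and with the lysosomal genes Psap (0.967) and Ctsa (0.965). Slc11a1 went with Thbd (0.986), Arhgef10l (0.985) and Cd300c2 (0.984).

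Tfrc followed Ltb (0.925), Tspan32 (0.924) and Grap2 (0.922). Aco1 followed Kctd20 (0.940), Taldo1 (0.939) and Sgpl1 (0.939), and Ireb2 followed Stag2 (0.886), Pank3 (0.870) and Rlim (0.866). The scarce Slc40a1 had weaker partners in Ifi207 (0.644), Pilrb1 (0.641) and Treml4 (0.639). The even Ncoa4 had the weakest, in Rsad2 (0.525), Isg20 (0.476) and Ghitm (0.476). Among the members themselves, Ftl1 rose and fell with Aco1 (0.898) and Slc11a1 (0.886) and against Tfrc (-0.834), while Fth1 and Ftl1 were only loosely related (0.468). Over the 12 group means in place of the libraries, the 3 nearest genes were different ones for all members but Ireb2, which kept Pank3.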

How the data were processed

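The authors deposited a table of raw read counts per gene, which holds every library of the series. Their methods and processing notes name a stranded total RNA kit for low input, paired-end reads, HISAT2 alignment to mm10 and HTSeq counting on Ensembl genes. Groups came from the condition and cell type that the labels give and replicate numbers from the sample titles, and no label pairs libraries by mouse, so p-values measure the spread between libraries. The 8 members and all gene lists were chosen with earlier results of these data known.

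Tests used edgeR 4.0.16 (limma 3.58.1, R 4.3.3) on these counts: filterByExpr, TMM scaling, robust quasi-likelihood fits and Benjamini-Hochberg adjustment over all genes tested. Stress comparisons were fitted within a cell type on CON, SUS and RES together. Cell type and difference-of-difference tests used a fit of 12 group means, with every library treated as independent. SE is the absolute log2 difference over the square root of F. The scripts were first tested on simulated counts. Levels and ratios used Python 3.11.15 with pandas 2.3.3, and copies of ferritin genes were found with blastn 2.17.0 (at least 90% identity over 200 bases). All 8 members are named. Of the 42 other iron genes, up to 6 with the smallest adjusted p among those that passed and up to 4 with the largest difference among those that did not were named for stress comparisons, and examples of the former for cell types. A gene that this rule names is not reported here. Likeness was ranked over 8135 protein-coding genes with a mean of at least 10 CPM, 3 per member.

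Total counts per library were 19769835 to 67038231. Limits from 0 counts cover counting error only, since reads carried no molecular identifiers. No libraries looked deposited more than once: over 161 pairs within groups, chi-square per degree of freedom was 26.07 to 935.4. Alternatives were DESeq2 1.42.0, its size factors, other count filters, fewer groups in the fit, a fold threshold, removal of mitochondrial, hemoglobin and rRNA-like genes, a red cell covariate, replicates 52 and 70 kept, ferritin copies added, and each library left out.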

Additional observations from a re-analysis of the deposited data

Results flagged for a closer look

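Of 84 groups of member levels examined, 4 had a library far from the others of its group, and chance alone flags about 1 in 20 groups. Fth1 in SUS T cell replicate 57 was 335.11 CPM, with the next highest at 206.99 CPM. Ftl1 in SUS Ly6C-high monocyte replicate 14 was 313.75 CPM against 191.09 CPM, the library that also had the most red cell RNA of the Ly6C-high libraries (8988 CPM). Slc11a1 in CON T cell replicate 56 was 2.6913 CPM against 1.2704 CPM. Aco1 in SUS B cell replicate 45 was the lowest of its group at 20.003 CPM, with the next at 25.872 CPM.

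The difference of Fth1 between SUS and CON was larger in Ly6C-high monocytes than in B cells by 0.889 on the log2 scale, which was tested directly (edgeR, adjusted p = 0.00766). With replicates 52 and 70 kept it did not pass (adjusted p = 0.111), and the red cell covariate was not run for it.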

How the results depend on the processing

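No paired analysis was possible because each replicate number belongs to a single library and no label ties libraries to a mouse. Tests across cell types treated all libraries as independent. Whether libraries of different cell types came from the same mice was not tested. Of 2217 member values recomputed for stress comparisons, 2201 kept their direction or stayed without a call, 4 lost a call, 12 gained one and 0 reversed. For cell types these were 293, 6, 1 and 0 of 300, and for differences of differences 335, 1, 0 and 0 of 336. Among uncalled values 134, 6 and 10 changed sign.

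With an added threshold of 1 on the absolute log2 difference, 0 members passed between SUS and CON in Ly6C-high monocytes (2 without it), 3 between the monocyte types (5), 4 between Ly6C-low monocytes and B cells (7), 4 between Ly6C-low monocytes and T cells (7) and 2 between B and T cells (4). Of all genes 3.45%, 25.5%, 37.3%, 36.7% and 26% passed both thresholds there. The red cell covariate left 0 between SUS and CON in Ly6C-high monocytes. Between RES and CON there, where 0 passed, DESeq2 called 1, no count filter 1, the 2 groups alone 3 and added ferritin copies 1. CON libraries alone left 3 between the monocyte types. With replicates 52 and 70 kept, 0 members passed for the SUS difference of Ly6C-high monocytes against B cells (1). Leaving out each library in turn gave 1 to 2 members between SUS and CON in Ly6C-high monocytes and 0 to 2 between RES and CON. Among these alternatives, the share of all genes passing was counted only for the fold threshold. The cause of these changes was not tested. DESeq2 size factors moved the 7 tested members by a median of -0.07 between SUS and CON in Ly6C-high monocytes and by -0.11 in the difference from B cells, where Fth1 was 0.78 (adjusted p = 0.0204).

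Leaving out libraries from the difference of differences was chosen after seeing the data. Slc40a1 was too low to test between stress groups in B and T cells. Levels of ferritin copies cannot be separated from Ftl1, mRNA levels do not give protein or iron content, and 4 to 6 libraries a group limit the precision.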
